A study of Mus musculus with 12 samples.

Results

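The 10 genes described here encode the neuronal tubulins Tubb3, Tubb2a, Tubb2b, Tubb4a and Tuba1a, the microtubule-associated proteins Map2, Mapt and Dcx, the tubulin-binding protein Stmn2, and the growth cone protein Gap43. They were chosen by name, with earlier results of these data known, and all 10 were among the 48709 genes in the count tables and among the 18847 genes that passed the filter on low counts. RNA was sequenced from primary hippocampal cultures of embryonic day 17 CD1 mice, 6 libraries treated with a miR-148a-3p mimic and 6 treated with a negative control oligonucleotide. Both groups received their oligonucleotide in lipid nanoparticles, with ApoE4 added per the study, at day 10 in vitro and were harvested after 48 h, at day 12. Both came from hippocampi pooled over embryos, and per the study these cultures hold glial cells besides neurons. The comparison asks how the transcripts of these genes differ when the level of this microRNA is raised. The libraries were made from poly(A) RNA and sequenced as 50 bp single-end reads, so the mature microRNA itself was not measured.

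Microtubules are hollow polymers of α- and β-tubulin heterodimers, and each tubulin type is encoded by several genes, the isotypes. Neurons depend on microtubules for the shape of axons and dendrites and for transport along them, and they use isotypes that other cells express little, among them Tubb3. Proteins such as tau (Mapt) and Map2 bind along the polymer lattice, tau mainly in axons and Map2 mainly in dendrites. Stathmins such as Stmn2 bind free tubulin and favour the shrinkage of microtubule ends. MicroRNAs lower their targets by pairing with the 3′ untranslated region (UTR) of a transcript, mainly through the seed, bases 2 to 8 of the microRNA.

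The mimic, the negative control and the only seed site of the mimic found in the longest annotated 3′ UTRs of these 10 genes follow here. Shorter seed matches, coding sequences and other 3′ UTRs of these genes were not searched. The seed and its match are in capitals.
miR-148a-3p mimic: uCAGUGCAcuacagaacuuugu
negative control: uCACCGGGuguaaaucagcuug
Gap43 3′ UTR: tgggaaattctTGCACTGtaccccggtttt

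The mimic is identical to mature mmu-miR-148a-3p of RefSeq, which lies on the minus strand at chr6:51269829-51269850 (GRCm38.p6). Both oligonucleotide sequences are from the reagent list of the study, and it is assumed that the listed negative control was the one given to the 6 control cultures. The longest annotated 3′ UTR of each gene was searched for TGCACTG, which pairs with bases 2 to 8, and for GCACTGA, which pairs with bases 2 to 7 and ends in an A. Gap43 held 1 site of the TGCACTG kind, at chr16:42248749-42248755 on the minus strand, which is base 274 of its 587-base 3′ UTR. The stretch shown is chr16:42248737-42248766. No match to either word was found in the 3′ UTRs of the other 9 genes, which ranged from 194 bases in Tubb2a to 7709 bases in Dcx. For comparison, 21.9% of the 15082 tested genes with an annotated 3′ UTR held such a site, and the median length of those UTRs was 1173 bases. Sites for the negative control were in 4.42% of the UTRs and in 0 of the 10 members. A match to these letters is a description of the sequence and does not show pairing in the cultures.

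Library totals ranged from 20018234 to 37149112 counts, and control replicates 1 and 2 were the shallowest, with 20018234 and 23097094. In a principal component analysis of all tested genes the first component separated mimic from control. Control replicate 1 stood apart on the second component, at 47.03 against -16.8 to 7.80 for the other 11 libraries. All 30 pairs of replicates within a group differed by more than sampling noise, with a chi-square per degree of freedom of 1.73 to 39.4, so no pair looked like a repeated deposit of 1 library. Nothing states that the replicates came from separate preparations, so the p-values measure the spread between these libraries, which may be technical. Of the neuron markers outside the cytoskeleton, 21 of 21 were detected, which is what the label of the cultures calls for.

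Of the 10 genes, 7 were lower in mimic at an adjusted p under 0.05 and 0 were higher, where 10.7% of all tested genes were called lower and 22.2% were called in either direction (quasi-likelihood F-test of edgeR, Benjamini-Hochberg adjustment over all tested genes). The 7 were Tubb3, Tubb2b, Mapt, Tuba1a, Gap43, Stmn2 and Tubb2a. Tubb4a, Map2 and Dcx did not pass the test. In the same 7 genes every mimic library lay below every control library, which held for 5.83% of all tested genes. All 10 log2 fold changes were below 0, with a median of -0.20 beside -0.01 over all tested genes. The changes were small in size, since 5% of all tested genes had a log2 fold change below -0.47.

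**Figure D1:**
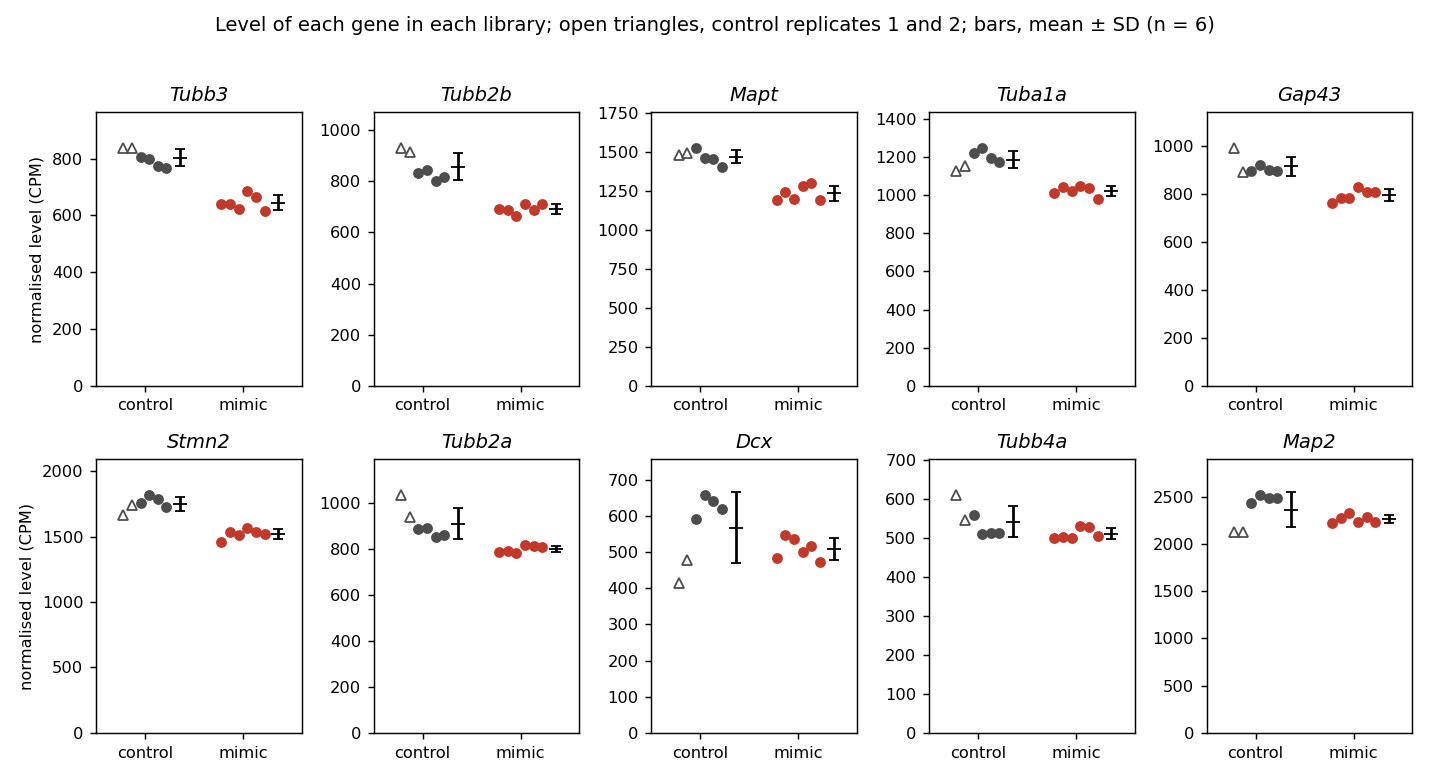
Normalised level in CPM (counts scaled to the library total, vertical axes from 0) of each of the 10 genes in the 6 control and 6 mimic libraries, ordered by log2 fold change. Bars to the right of the points give the mean ± SD. The groups separate in the first 7 panels and overlap for Dcx, Tubb4a and Map2. Control replicates 1 and 2 (open triangles) lie below the other 4 control libraries for Dcx and Map2.

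Among the β-tubulins, Tubb3 (chr8:123411424-123422015 in mm10, plus strand) is the isotype used as a marker of neurons. Its level in the 6 control libraries was 767 CPM at the lowest, 801 at the median and 837 at the highest. In the mimic libraries it was 614, 640 and 684 CPM. CPM are counts scaled to the library total after TMM normalization. The highest mimic library thus lay below the lowest control library. The means were 802 ± 30.04 CPM (SD, n = 6) in control and 644 ± 26.4 (SD, n = 6) in mimic, and the log2 fold change was -0.32 with a standard error of 0.036 (edgeR adjusted p = 4.65e-06), a decrease of the level by a ratio of 0.802.

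Tubb2b (chr13:34126748-34130466, minus strand), a β-tubulin of the developing brain, had 803, 839 and 931 CPM at the lowest, median and highest control library. The mimic libraries had 663, 690 and 712 CPM. The groups did not overlap, and the log2 fold change was -0.31 with a standard error of 0.040 (edgeR adjusted p = 2.07e-05). Tubb2a (chr13:34074274-34078007, minus strand), its close paralog at the same locus, had 850, 890 and 1034 CPM in control and 784, 799 and 816 CPM in mimic. The groups again did not overlap, but the 6 control libraries were spread more widely, with an SD of 68.0 CPM against 14.7 in mimic, and the highest was control replicate 1. Its log2 fold change was -0.19 with a standard error of 0.043 (edgeR adjusted p = 0.00397).

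Tubb4a (chr17:57080066-57087782, minus strand), a β-tubulin of neurons and oligodendrocytes, had 511, 530 and 610 CPM in control. The mimic libraries had 500, 504 and 530 CPM, and 4 of the 6 lay below the lowest control library. The log2 fold change was -0.08 with a standard error of 0.043 and a 95% confidence interval from -0.18 to 0.01 (edgeR adjusted p = 0.188). The highest control value was that of control replicate 1, and without that library the log2 fold change was -0.05 with a standard error of 0.031 (edgeR adjusted p = 0.297).

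Tuba1a (chr15:98949837-98953703, minus strand), the α-tubulin that postmitotic neurons express most, had 1127, 1185 and 1247 CPM at the lowest, median and highest control library. In mimic it had 979, 1028 and 1050 CPM, with no overlap between the groups. The log2 fold change was -0.21 with a standard error of 0.033 (edgeR adjusted p = 0.000129).

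Reads of 50 bases do not always tell tubulin genes apart. Of the 50-base stretches in the annotated transcripts of Tuba1a, 75.5% also occurred in transcripts of other genes, 46.9% in Tuba1c, and an overlapping gene on the same strand, Gm49450, which is not in the count tables, shared 26.2% of its exon bases. The share was 49.6% for Tubb2a and 36.9% for Tubb2b, mostly with each other, at 45.6% and 31.3%. The counts of these 3 genes are therefore uncertain, since how the counting treated reads with several matches is not given in the sources used here. In the other 7 genes, under 1% of the stretches occurred elsewhere, and Tubb3, Mapt and Gap43 shared none. An antisense gene, Gm10558, overlaps 0.754% of the Map2 exon bases and had 5 to 22 counts a library.

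Mapt (chr11:104231390-104332090, plus strand), which encodes tau, had 1404, 1471 and 1528 CPM at the lowest, median and highest control library and 1190, 1221 and 1304 in mimic. Every mimic library was below every control library. The log2 fold change was -0.25 with a standard error of 0.034 (edgeR adjusted p = 2.93e-05).

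Map2 (chr1:66175273-66442583, plus strand), the dendritic member of the tau family, had 2125, 2458 and 2518 CPM in control and 2217, 2254 and 2332 CPM in mimic. The lowest control values were those of replicate 1 (2125 CPM) and replicate 2 (2127 CPM), which lay below every mimic library, and the other 4 control libraries, at 2436 to 2518 CPM, lay above every mimic library. Over all 12 libraries the log2 fold change was -0.06 with a standard error of 0.045 and a 95% confidence interval from -0.16 to 0.03 (edgeR adjusted p = 0.372). With control replicates 1 and 2 left out, an alternative added after the values were seen, it was -0.13 with a standard error of 0.022 (edgeR adjusted p = 5.63e-05).

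Dcx (chrX:143855842-143933311, minus strand), doublecortin, which binds microtubules in migrating and young neurons, had 416, 606 and 658 CPM at the lowest, median and highest control library. The mimic libraries had 471, 509 and 548 CPM. As for Map2, the low control values were those of replicates 1 and 2, at 416 and 480 CPM, while the other 4 ranged from 592 to 658, above every mimic library. The log2 fold change was -0.16 with a standard error of 0.096 and a 95% confidence interval from -0.36 to 0.05 (edgeR adjusted p = 0.284). Without control replicate 1 it was -0.23 with a standard error of 0.074 (edgeR adjusted p = 0.0362). Without control replicates 1 and 2 it was -0.30 with a standard error of 0.041 (edgeR adjusted p = 3.91e-05), and 9 of the 10 genes were then called lower, all but Tubb4a. In that fit 15.2% of all tested genes were called lower, and in the fit without control replicate 1 alone 8 of the 10 genes and 13.1% of all tested genes were.

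Stmn2 (chr3:8509360-8561606, plus strand), the stathmin of growth cones also known as SCG10, had 1668, 1750 and 1818 CPM at the lowest, median and highest control library. The mimic libraries had 1460, 1526 and 1569 CPM, all below the lowest control library. The log2 fold change was -0.20 with a standard error of 0.031 (edgeR adjusted p = 0.00011).

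Gap43 (chr16:42248442-42340651, minus strand), a membrane protein of growing axons, was the only member with a seed site of the mimic in the searched 3′ UTR. Gap43 had 894, 898 and 994 CPM at the lowest, median and highest control library. It had 764, 796 and 831 CPM in the mimic libraries. The groups did not overlap, and the log2 fold change was -0.20 with a standard error of 0.035 (edgeR adjusted p = 0.000322). This lay at the median of the 10 genes, and 4 genes in which no site was found, Tubb3, Tubb2b, Mapt and Tuba1a, had lower values. Differences between members were set against Tubb3 within each library, as a description with no test. The log2 ratio of Gap43 to Tubb3 was 0.10 to 0.25 in control and 0.25 to 0.40 in mimic, without overlap, so Gap43 was the less reduced of both. The ratios of Tubb4a and Map2 to Tubb3 were also higher in mimic without overlap, while those of Tubb2a, Tubb2b, Tuba1a, Mapt, Stmn2 and Dcx overlapped between the groups.

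**Figure D2:**
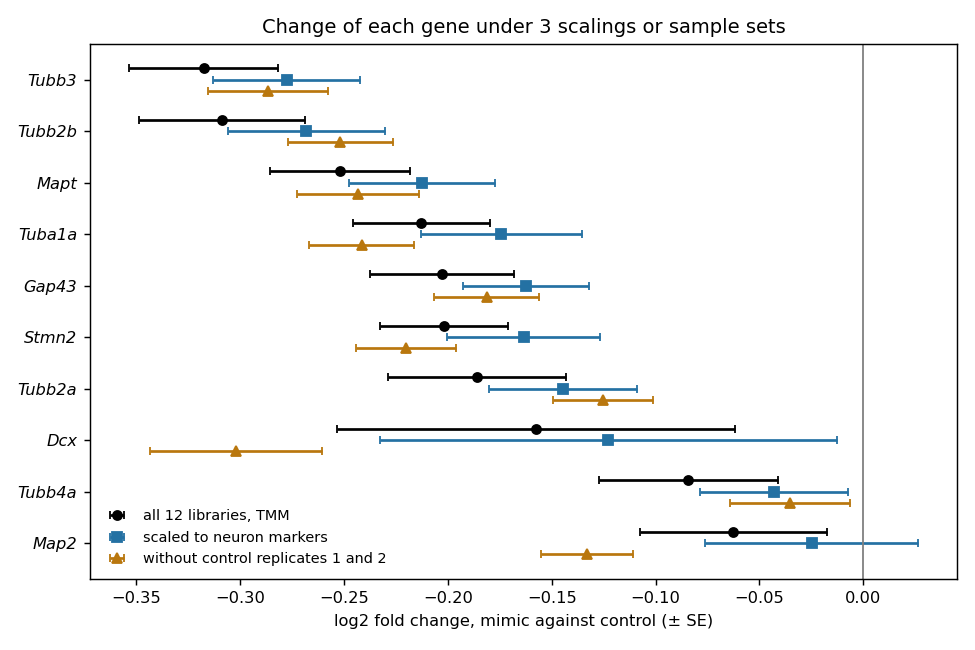
Log2 fold change of each gene, mimic against control (horizontal axis), with its standard error, for all 12 libraries with TMM scaling, with libraries scaled to neuron markers, and without control replicates 1 and 2. All points lie left of 0. Scaling to neuron markers moved each gene toward 0 by a similar amount, and leaving out the 2 control libraries moved Dcx to -0.30 and Map2 to -0.13, away from 0, and Tubb2a to -0.13, Tubb2b to -0.25 and Tubb4a to -0.04, toward 0.

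The cultures are mixed, and in bulk samples fewer cells of a type and less RNA per cell cannot be told apart. The levels of the 21 neuron markers outside the cytoskeleton summed to 9776 to 10543 CPM in control and 9553 to 9828 in mimic. The ranges of these marker sums overlapped only through mimic replicate 3, and every other mimic library lay below the lowest control library. Of these markers 5 were lower in mimic, 1 was higher and 15 did not pass the test, with a median log2 fold change of -0.04 and none at 0. Without control replicate 1 there were 6 lower and 3 higher, with a median of 0.001, and without control replicates 1 and 2 there were 6 lower and 4 higher. The RNA-binding protein gene Elavl3 (-0.17, edgeR adjusted p = 0.000545) and Uchl1 (-0.17, adjusted p = 0.0184) were among the lower, and the glutamate decarboxylase gene Gad2 (0.14, adjusted p = 0.0129), chosen after its value was seen, was the higher one over all libraries. Astrocyte markers summed to 5320 to 5797 CPM in control and 6276 to 6744 in mimic, with 8 of 11 higher, among them the glutamate transporter Slc1a3 (0.99), and 1 lower, Gfap (-0.90). Oligodendrocyte lineage markers summed to 393 to 682 CPM in control and 769 to 964 in mimic, with 6 of 9 higher and 1 lower, Mog (-0.36), named after its value was seen, and Olig1 made up most of the sum, with a mean of 370 CPM in control and 720 in mimic. Microglial, endothelial, mesenchymal and ependymal markers had no member higher, and 2 of 8, 2 of 5, 2 of 8 and 3 of 6 lower, where 10.7% of all tested genes were lower. The lowest log2 fold change among the mesenchymal markers was that of Acta2, at -2.86. Of the immature neuron markers 1 of 7 was higher and 2 were lower. Without control replicate 1, 2 astrocyte markers and 2 oligodendrocyte lineage markers were lower and 2 immature neuron markers were higher. No marker on these lists was at 0 in all libraries.

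To give the change relative to other neuronal transcripts, the library totals were replaced by the summed counts of the 21 neuron markers. With this scaling 7 of the 10 genes were still lower, the 7 named above, where 7.58% of all tested genes were called lower and 14.9% higher. The level relative to the summed markers did not overlap between the groups in 5 of the 7, and overlapped for Tuba1a and Stmn2. The median of the 10 genes was -0.16. Tubb3 had a log2 fold change of -0.28 (standard error 0.035, edgeR adjusted p = 1.27e-05), Tubb2b of -0.27 (0.038, adjusted p = 3.62e-05) and Mapt of -0.21 (0.035, adjusted p = 0.000195). Tubb2a had the least among the 7 called, at -0.14 (0.036, adjusted p = 0.00637). Tubb4a was then at -0.04, Map2 at -0.02 and Dcx at -0.12, and none of these passed the test.

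Levels of different genes were compared per exon length, as RPKM (counts per exon length and TMM-scaled library total). Exon length joined all annotated exons of a gene, which can be longer than the transcripts present in the cultures. It was 16449 bases for Map2, 12647 for Dcx and 5602 for Stmn2, whose levels would be higher if shorter transcripts prevail. The order given here therefore depends on the annotation as well as on the transcripts. In control, Tuba1a had 658 ± 25.0 RPKM (SD, n = 6), Gap43 602 ± 25.6 and Tubb2a 565 ± 42.2, and the ranges of neighbours in this order overlapped. Then followed, each below the range of the one before, Tubb3 at 430 ± 16.1 RPKM, Tubb2b at 374 ± 23.4, Stmn2 at 312 ± 9.36, Tubb4a at 243 ± 17.5, Mapt at 195 ± 5.57, Map2 at 144 ± 11.3 and Dcx at 44.9 ± 7.74. Map2 had the highest CPM of the 10 but rank 9 per length, as its exons span 16449 bases against 1868 in Tubb3. When only the stretches of sequence that occur in no other gene were counted as length, Tuba1a was at 2690 RPKM, Tubb2a at 1121 and Tubb2b at 592, and Tubb2a and Tubb2b moved ahead of Gap43 and Tubb3, respectively.

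**Figure D3:**
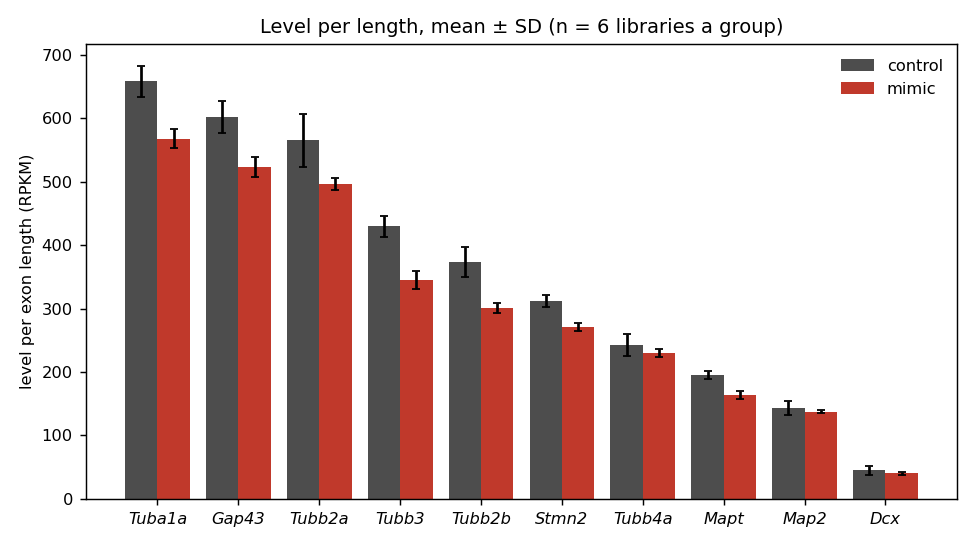
Level per exon length in RPKM (bars from 0, mean ± SD over 6 libraries) of the 10 genes in control and mimic, ordered by the control level. Length joins all annotated exons of a gene, so the order depends on the annotation. The order runs from Tuba1a at 658 RPKM to Dcx at 44.9 in control, and each mimic mean is below its control mean.

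The β-tubulin genes summed to 2106 ± 114 RPKM (SD, n = 6) in control and 1819 ± 42.3 in mimic, and the α-tubulin genes to 730 ± 22.8 and 646 ± 12.9, in both cases without overlap between the groups. Within the β-tubulin sum, the share of Tubb3 was 20.4% ± 0.440 (SD, n = 6) in control and 18.9% ± 0.413 in mimic, and that of Tubb2b was 17.7% ± 0.331 and 16.6% ± 0.347, both lower in mimic without overlap. The share of Tubb4a was 11.5% ± 0.358 in control and 12.6% ± 0.127 in mimic, and that of Tubb5, an isotype found in most cell types, was 20.5% ± 0.166 and 21.1% ± 0.242, both higher without overlap. Tubb6 made up 0.319% ± 0.026 in control and 0.429% ± 0.032 in mimic, also higher without overlap. The share of Tubb2a overlapped between the groups, at 26.8% ± 0.595 and 27.3% ± 0.351. Within the α-tubulin sum, Tuba1a had 90.1% ± 0.697 in control and 87.9% ± 0.582 in mimic, without overlap. With the length restricted to stretches unique to a gene, the shares of Tubb2b, Tubb4a, Tubb6 and Tuba1a still did not overlap between the groups, whereas those of Tubb3 and Tubb5 did. These shares are descriptions. They rest on counts that near-identical genes can share and on lengths that join all annotated exons of a gene.

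**Figure D4:**
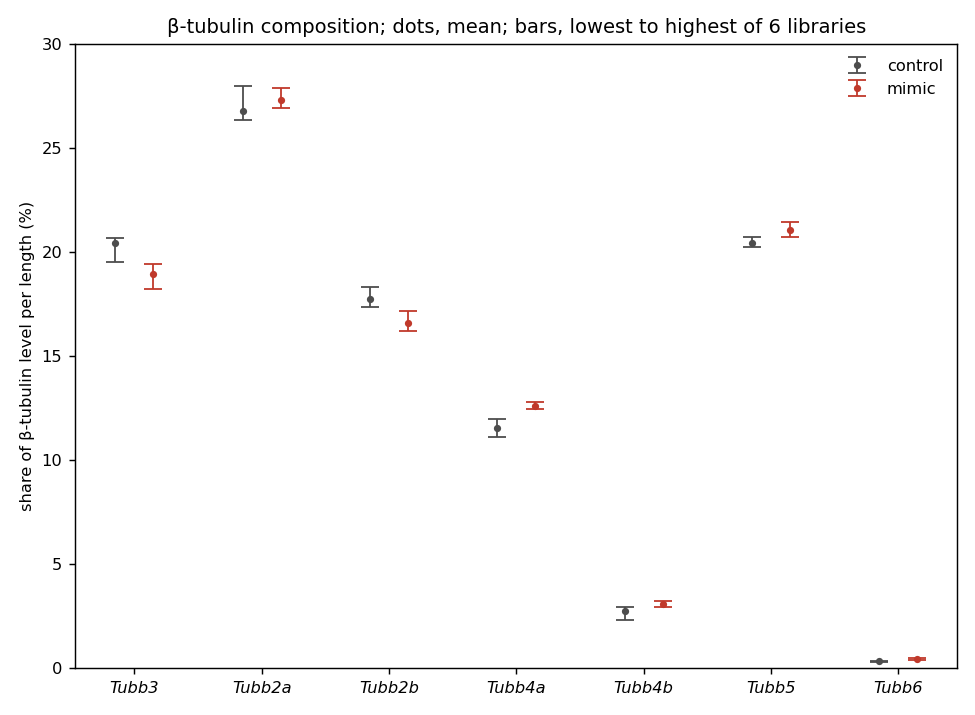
Share of each β-tubulin gene in the summed β-tubulin level per exon length (vertical axis, percent) in control and mimic. Dots are means and bars run from the lowest to the highest of 6 libraries. The bars of Tubb3 and Tubb2b are lower in mimic and those of Tubb4a and Tubb5 higher, without overlap, while those of Tubb2a and Tubb4b overlap. Tubb6, at under 0.5%, is also higher without overlap. Tubb1, at under 0.01% in both groups, is left out.

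Of the other tubulin genes, 11 were tested, and of these 1 was lower, 2 were higher and 8 did not pass the test. Their median log2 fold change was 0.12. Tubb5 was lower, from 1433 ± 68.9 CPM (SD, n = 6) to 1276 ± 36.7, a log2 fold change of -0.17 (edgeR adjusted p = 0.00231). Tubb6 (0.22, adjusted p = 0.0167) and Tuba8 (0.66, adjusted p = 0.000343) were higher, both at low levels, with 16.4 and 2.37 CPM in control. Tuba4a had 0.12, Tubb4b -0.05, Tuba1b 0.03 and Tuba1c 0.50, and 75.1% of the 50-base stretches of Tuba1b and 52.7% of those of Tuba1c occurred in transcripts of other genes. The γ-tubulins Tubg1 and Tubg2, which nucleate microtubules, had -0.11 and 0.05, and the δ- and ε-tubulins Tubd1 and Tube1 had 0.16 each. None of these 8 passed the test, and Tuba3b was at 0 in all libraries. With neuron marker scaling Tuba4a passed, at 0.16 (edgeR adjusted p = 0.0072), and 3 of the 11 were higher.

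The wider microtubule system was described with 11 lists of related genes, 152 of them tested, of which 45 were lower and 27 higher, with a median log2 fold change of -0.05. Of the 27 higher, 19 were on the list of mitotic proteins and 8 on the other lists, and over all tested genes 10.7% were lower and 11.5% higher. With neuron marker scaling 32 of the 152 were lower and 35 higher, and 19 of the higher were on the mitotic list. Over all tested genes 7.58% were lower and 14.9% higher with that scaling. Of the other stathmins, Stmn1 (-0.22, edgeR adjusted p = 0.003) and Stmn4 (-0.21, adjusted p = 0.00344) were lower, and Stmn3, named after its value was seen, was at -0.13 (adjusted p = 0.0521). Of 13 growth-associated proteins 10 were lower and none was higher, with a median of -0.17. The lower ones included the collapsin response mediator proteins, which bind tubulin and act in growth cone guidance, with Dpysl5 falling from 952 ± 36.1 CPM (SD, n = 6) to 728 ± 29.2 (log2 fold change -0.39, adjusted p = 4.78e-07), Crmp1 (-0.35, adjusted p = 2.5e-05) and Dpysl3 (-0.21, adjusted p = 0.000263).

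Of 15 other lattice-binding proteins 5 were lower and 1 was higher, with a median of -0.06. Tppp3, a tubulin polymerisation-promoting protein, was at -0.44 (edgeR adjusted p = 0.000162) and Map6, which protects microtubules from cold, at -0.28 (adjusted p = 0.000102), while Dclk2, a kinase related to doublecortin, was at 0.19 (adjusted p = 0.002). Scaled to neuron markers, 3 of the 15 were higher. Of 22 genes for tubulin folding and modification 10 were lower and 1 was higher, with a median of -0.11. The lower ones included Svbp (-0.28, adjusted p = 0.00299) and Vash2 (-0.19, adjusted p = 0.0124), partners in the enzyme that removes the terminal tyrosine of α-tubulin, and the deglutamylase Agbl4 (-0.22, adjusted p = 0.033). With the neuron marker scaling 6 of the 22 were lower, and Vash2 and Agbl4 did not pass. With upper-quartile scaling 13 of the 22 were lower and none was higher, where 2465 of all 18847 tested genes were lower. Without control replicate 1, 13 of the 22 were lower, where 13.1% of all tested genes were.

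Of 20 proteins that bind microtubule ends 7 were lower and 1 was higher, with a median of -0.05. The minus-end protein Camsap3 was at -0.25 (edgeR adjusted p = 0.0061), and Dst and Nav1 were at -0.19 (adjusted p = 0.000257) and -0.17 (adjusted p = 0.000958). The count of lower genes was 4 with neuron marker scaling, and none was higher with upper-quartile scaling. Of 22 motor genes 5 were lower and none was higher, the kinesin-2 subunits Kif3a (-0.17, adjusted p = 0.000217) and Kif3b (-0.13, adjusted p = 0.00562) and the kinesin light chain Klc1 (-0.16, adjusted p = 0.0393) with them. With neuron marker scaling 1 was lower and 2 were higher, and Kif3b and Klc1 did not pass, while with upper-quartile scaling 8 were lower. Lower calls over all 18847 tested genes numbered 1429 with neuron marker scaling and 2465 with upper-quartile scaling, against 2019 with TMM. Of 15 kinases and phosphatases that act on microtubule proteins 2 were lower, the Cdk5 activator Cdk5r1 (-0.16, adjusted p = 0.00202) and Mapk10 (-0.14, adjusted p = 0.00545). The latter did not pass with neuron marker scaling.

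Severing enzymes and intermediate filaments moved in both directions. Of 7 severing genes the katanin gene Katnal1 was lower (-0.37, edgeR adjusted p = 2.82e-06), and Fignl1 (0.51, adjusted p = 5.75e-05) and Fignl2 (0.53, adjusted p = 0.0242), named after its value was seen, were higher. Of 5 neuronal intermediate filament genes Prph (-0.37, adjusted p = 0.000667) and Ina (-0.16, adjusted p = 0.00359) were lower and Nefm (0.17, adjusted p = 0.038) was higher. The call for Nefm was lost with upper-quartile scaling, and 3 of the 5 were higher with neuron marker scaling. Small counts of higher genes on these lists moved with control replicate 1. Without it 3 lattice-binding proteins, 3 other tubulins, 2 genes for tubulin folding and modification and 2 intermediate filament genes were higher, and 7 motor genes were lower and 1 was higher. Calls over all genes rose too. Without that library 2697 of 18794 tested genes were higher and 2453 lower, against 2163 and 2019 of 18847 with all libraries.

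Microtubule proteins of the mitotic spindle were higher in mimic. All 19 tested passed the test, with a median log2 fold change of 1.03, and the list was chosen with the rise of cell-cycle genes in these data known. The spindle motor Kif11 had 18.1 ± 2.84 CPM (SD, n = 6) in control and 42.2 ± 0.937 in mimic, a log2 fold change of 1.21 (edgeR adjusted p = 7.02e-09). Tpx2, which nucleates spindle microtubules, went from 27.7 CPM to 59.1, a log2 fold change of 1.09. Hmmr and Ckap2l were both at 1.17. The summed level of the list, 241 to 297 CPM in control and 535 to 588 in mimic, is small beside that of the 10 genes, at 11120 to 11665 and 9739 to 10201 CPM.

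**Figure D5:**
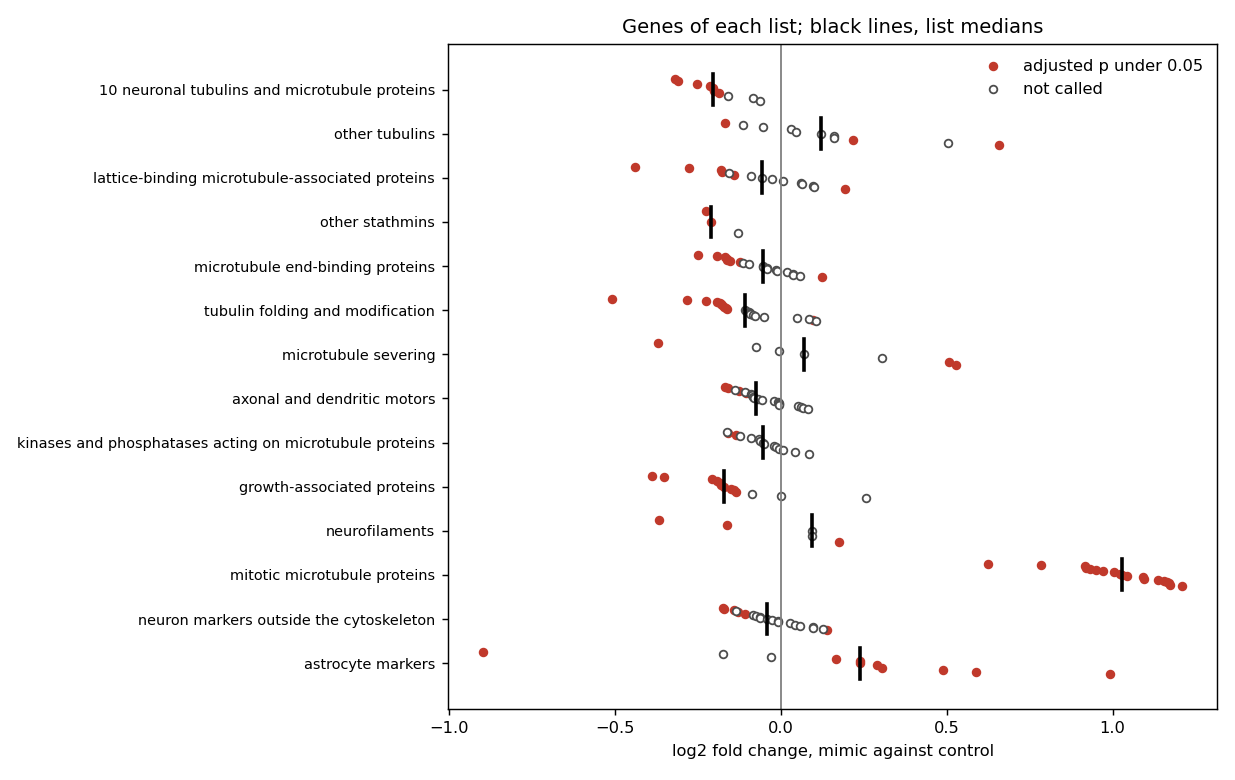
Log2 fold change, mimic against control (horizontal axis), of every tested gene of the 10 neuronal genes, the 11 lists of the microtubule system and 2 marker lists. Filled points passed the test at an adjusted p under 0.05 and black lines are medians. The 10 neuronal genes lie left of 0 with a median of -0.20, and the mitotic list lies to the right with a median of 1.03.

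Of the 45 pairs among the 10 genes 25 had a Pearson correlation of log2 CPM above 0 with group means removed, over 12 libraries, with a median of 0.30 and a range from -0.92 (Tubb2b with Map2) to 0.95 (Map2 with Dcx). Without control replicates 1 and 2, 37 of the 45 pairs were above 0, with a median of 0.41 and a range from -0.57 to 0.85. Genes that followed the mean of the 10 most closely were found by the same correlation with that mean. The 5 closest with a mean of at least 100 counts were Mapre2 (r = 0.91, Spearman's rho = 0.92), which binds growing microtubule ends, Gm26541 (0.90, rho = 0.87), Samd10 (0.87, rho = 0.87), Plxnc1 (0.86, rho = 0.94), a semaphorin receptor, and Amz2 (0.85, rho = 0.84). These values describe the same 12 libraries and share their depth and scaling. The 5 genes were picked as the highest of all genes scanned, so high values can come from the picking alone, which was not tested. Without control replicates 1 and 2 the 5 correlations were 0.87 to 0.93, over libraries also used for the picking. Mapre2 was also lower in mimic, with a log2 fold change of -0.12 (edgeR adjusted p = 0.00777), and did not pass the test with neuron marker scaling (-0.08, adjusted p = 0.096).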

How the data were processed

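Mouse hippocampal cultures were profiled by poly(A) RNA sequencing, 6 control and 6 mimic libraries grouped and numbered by their sample titles. Per the labels and the submitters' processing notes, the authors aligned reads with STAR 2.5.2b to mm10 and made the deposited raw counts per Ensembl gene with featureCounts of Subread 1.5.1. Strand use in counting is not given in the sources used here. A deposited table of normalized values was not used.

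Genes with at least 5 counts in 6 of 12 samples were tested in edgeR 4.0.16 (R 4.3.3) by its quasi-likelihood F-test, with TMM scaling and no covariate. P-values were adjusted over all tested genes by the method of Benjamini and Hochberg, with 0.05 as the threshold. DESeq2 1.42.0, the tool of the study, and limma-voom (3.58.1) served as alternatives. Standard errors are the log2 fold change divided by the square root of F, and 95% intervals use the moderated degrees of freedom. The lowest count of any of the 10 genes was 8231, a counting error of 1.1%, so replicate spread and not depth limits the precision.

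Gene models, 3′ UTRs and transcripts were those of GENCODE M21 (GRCm38, the build of mm10), which named 48349 of the 48709 genes. Shared stretches were counted against annotated transcripts, not the genome. The 10 genes and all lists were chosen with earlier results of these data known. Named from each list were up to 3 called genes with the largest change and a mean of at least 100 counts, all tested tubulins, Kif11 and Tpx2, and the 5 genes closest to the 10 genes. Gad2, Fignl2, Mog and Stmn3 are exceptions, named after their values were seen. Lists were described by counts and medians only. Alternatives varied the scaling, tool, filter, minimum fold change, replicate block, seed site, length measure and each library.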

Additional observations from a re-analysis of the deposited data

Results flagged for a closer look

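Gap43 in control replicate 1 was at 994 CPM, while the other 5 control libraries lay between 894 and 921 CPM. The gap to the nearest library was 0.732 of the whole range, above the limit of 0.625 that Dixon's test sets for 6 samples. The test was applied to 20 groups, 10 genes in control and in mimic, and chance flags about 1 in 20. Without control replicate 1 Gap43 was still lower in mimic, at a log2 fold change of -0.18 (edgeR adjusted p = 3.71e-05).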

How the results depend on the processing

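Over 22 alternatives, all 220 log2 fold changes of the 10 genes were below 0, and 210 stayed on their side of the threshold. The 7 that lost it did so against a minimum fold change of 1.2, where 0 of the 10 genes and 1035 of all genes were called, since that test asks for larger changes; Tubb3 then had an adjusted p of 0.261. The 3 that gained it were Dcx without control replicate 1, and Map2 and Dcx without control replicates 1 and 2. Scaling to neuron markers moved the median of the 10 genes to -0.163, and counting 8-base seed sites only left 0 genes with a site. Leaving out each library in turn gave 7 to 8 genes lower, 0 higher, a median of -0.22 to -0.19 and 3494 to 5150 genes called. The share of lower among all called genes was 48.3%, but 33.7% with neuron marker scaling, 34.0% with the minimum fold change and 56.0% with upper-quartile scaling. Same-numbered control and mimic samples did not deviate together (correlations from -0.04 to 0.09). Whether same-numbered cultures shared a preparation cannot be told from such correlations. With the replicate block 7 genes were lower, at a median of -0.20, and 3659 genes were called. Per unique length, Tuba1a, Tubb2a and Tubb2b moved as given above.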
